A study of Mus musculus with 33 samples.

Results

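This account covers 38 genes of the extracellular matrix, of the proteases that cut it and of the inhibitors of those proteases, out of 53735 genes in the authors' deposited tables of sorted immune cells from mouse pancreatic tumours. The genes were taken by row name from a given list, and every listed name was present in all 9 tables. They fall into 9 role groups: 4 fibrillar collagens, 4 type IV and VI collagens, 8 matrix glycoproteins, 4 matrix proteoglycans, 8 matrix metalloproteinases, 3 tissue inhibitors of metalloproteinases (TIMPs), 2 genes of plasminogen activation, 3 other proteases and 2 lysyl oxidases. Of the 38, 21 had a mean normalised count of at least 100 in both myeloid populations, and 17 fell below it in at least 1 of them.

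The extracellular matrix is the protein and sugar scaffold around cells, and pancreatic ductal adenocarcinoma is known for an unusually dense one. Fibroblasts make most of its collagen, while monocytes and macrophages secrete adhesive glycoproteins such as fibronectin and thrombospondin and the enzymes that remodel the scaffold. Matrix metalloproteinases are secreted or membrane-bound zinc enzymes that cut matrix proteins, TIMPs bind and block them, and plasminogen activators start a second cutting cascade at the cell surface.

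The mice were C57BL/6 and carried KCKO cells, a line of mouse pancreatic ductal adenocarcinoma, implanted in the tail of the pancreas. Tumours were treated with stereotactic body radiotherapy (SBRT, 4 fractions of 6 Gy on days 6 to 9), with microspheres holding 0.5 µg of recombinant interleukin 12 (IL-12, 2 mg of beads into the tumour on day 10), with SBRT followed by these microspheres (called the combination here), or left unirradiated. The protocols also name empty microspheres without saying which groups received them, so the unirradiated group may or may not have had an injection. Tumour-associated macrophages (TAM, sorted as CD45+CD11b+Ly6G- cells with moderate Ly6C and F4/80), inflammatory monocytes (IM, CD45+CD11b+Ly6C+Ly6G-) and CD8 T cells (CD45+CD8+) were sorted from dissociated tumours for RNA sequencing. IM and CD8 cells had 3 libraries in each of the 4 groups, and TAM had 3 libraries after IL-12 and 2 in each of the other groups. The labels do not say that each library came from a separate mouse, so each p rests on the variation among libraries, which may be technical.

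The authors' deposited tables set each treated group of a population against its unirradiated group. For each gene they give the mean normalised count over all libraries of the population (called the level here), a log2 fold change of treated over unirradiated, and a p from the authors' DESeq2 Wald test. No value of a single library is given, so the spread between libraries reaches the text only through that test, and the depth per library is unknown. A gene is said to have risen or fallen only where its deposited adjusted p was below 0.05. A ± is the standard error implied by the fold change and its Wald statistic, which for genes of low level is too small because the deposited fold changes are shrunken towards 0. Group levels were worked out from the deposited level, the 3 fold changes and the group sizes, and the shrinkage draws them together.

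The defining markers separated the sorted populations in part. Csf1r, the receptor for macrophage colony-stimulating factor, had a level of 62505 in TAM, 62172 in IM and 620.4 in CD8 cells. It did not separate TAM from IM. The macrophage marker C1qa had 113936 in TAM, 22138 in IM and 789.5 in CD8 cells. Ly6c2, which marks inflammatory monocytes, had 49540 in IM, 2391 in TAM and 16630 in CD8 cells. Cd8a had 44253 in CD8 cells against 239.3 in TAM and 224.0 in IM. Of the neutrophil markers, Ngp had 2414 in IM and 13.1 in TAM, Ltf 1484.5 and 16.7, Camp 847.1 and 5.29, and Ly6g 28.4 and 8.70. Of 12 fibroblast markers, 5 in TAM and 4 in IM had a level below 10, among them Lrrc15 and Tcf21 in both populations. The fibroblast receptors Pdgfra and Pdgfrb had levels of 6.46 and 16.3 in TAM and 15.2 and 44.8 in IM. Others of the list were higher: Pdpn had 484.7 in TAM and 168 in IM, Acta2 334.6 in TAM and 248.1 in IM, and Pi16 65.0 in TAM and 1167 in IM. In bulk RNA, fewer cells of a kind and less RNA per cell cannot be told apart.

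Most of the summed level of the 38 members in the myeloid cells came from a handful of secreted glycoproteins and surface proteins, while collagens were low. In the deposited tables Tgfbi, an adhesive protein induced by TGF-beta, had a level of 56617 in TAM and 87559 in IM, and Thbs1 (thrombospondin 1) had 25600 in TAM and 65425 in IM. Fn1 (fibronectin, chr1:71585520-71653200, GRCm38, minus strand) had 20993 in TAM and 56917 in IM, and Spp1 (osteopontin) had 11147 in TAM and 36133 in IM. The 6 highest members held 77.6% of the summed level of all 38 in TAM and 88.9% in IM. Per kilobase of annotated exon, which allows genes to be compared with each other, Tgfbi was highest in both populations, at 15014 in TAM and 23219 in IM, followed by Spp1 at 6764 in TAM and 21925 in IM. Col1a1 and Col3a1, chains of the main fibrillar collagens, reached only 105 and 82.0 per kilobase in TAM and 30.2 and 39.6 per kilobase in IM.

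The 21 genes at a level of 100 or more in both myeloid populations were Col1a1, Col1a2, Col3a1, Col4a2, Fn1, Sparc, Thbs1, Spp1, Tgfbi, Ecm1, Vcan, Mmp9, Mmp12, Mmp13, Mmp14, Mmp19, Timp1, Timp2, Plau, Plaur and Adam8. Mmp8, a neutrophil and monocyte collagenase, reached that level in IM alone. Bgn, Dcn, Mmp2, Mmp27 and Htra3 reached it in TAM alone, and the other 11 in neither. A gene's class in both rests on the lower of its TAM and IM levels. By that level Col4a2 (113.4 in IM) and Vcan (151.9 in TAM) were nearest inside, and Mmp2 (83.3 in IM) and Col4a1 (76.3 in TAM) nearest outside. With thresholds of 50 and 200 the class held 27 and 17 genes. The class rests on level alone. In CD8 cells Col1a1, Col1a2, Col3a1 and Sparc stood at 83.5%, 74.1%, 49.8% and 72.4% of their IM levels. Their CD8 levels were 20.4% (Sparc) to 25.6% (Col1a2) of those in TAM. Timp2 and Adam8 stood at 47.0% and 43.4% of IM, and the others of the class at 0.654% (Vcan) to 8.97% (Col4a2). Which cells gave the RNA of these collagens and of Sparc was not tested.

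The populations differed most in a few members, although their tables were normalised separately and these ratios have no test. Vcan, the large proteoglycan versican, had a level of 151.9 in TAM and 7857 in IM, and Mmp8 had 49.5 in TAM and 1383 in IM. Several proteases leaned the other way: Mmp12, the macrophage elastase, had 4269 in TAM and 883.4 in IM, Mmp13, a collagenase, had 1426 in TAM and 246.9 in IM, and Mmp27 had 139.3 in TAM and 10.6 in IM. Timp2 was 5.54 times as high in TAM (7221) as in IM (1303), whereas Timp1 had 350.8 in TAM and 677.7 in IM. Plau, the urokinase plasminogen activator, had 2356 in TAM and 815.5 in IM, and its receptor Plaur had 8238 in TAM and 17585 in IM. The membrane-bound proteases Mmp14 (13824 in TAM, 6627 in IM) and Adam8 (14229 in TAM, 13216 in IM) were high in both.

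**Figure D1:**
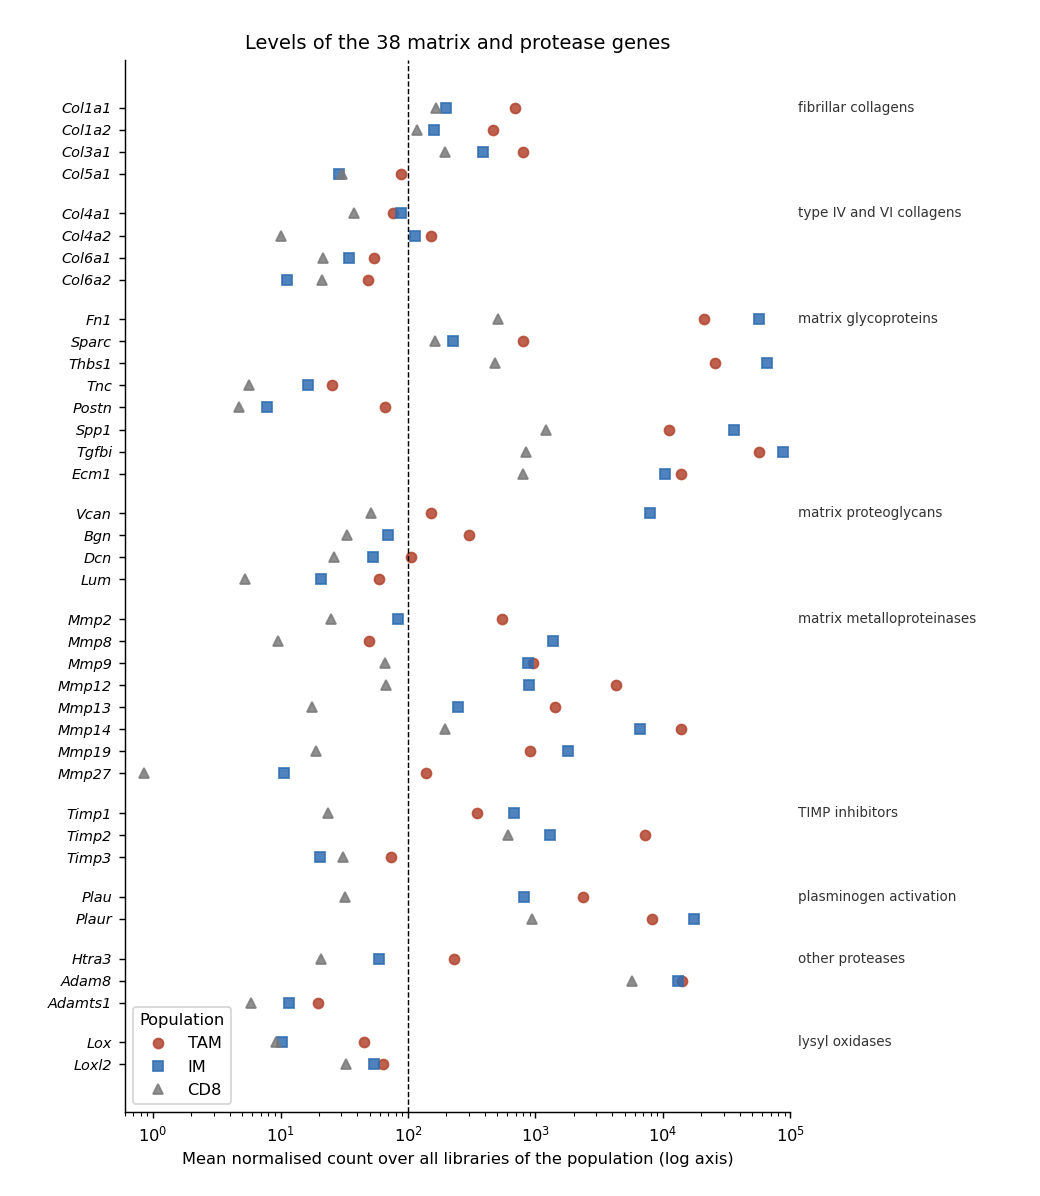
Deposited mean normalised count (log axis) of each of the 38 genes in TAM, IM and CD8 cells, grouped by role, with a dashed line at 100. Tgfbi, Thbs1 and Fn1 lie far beyond the dashed line in TAM and IM, 11 genes stay below it in both, and Vcan and Mmp8 are far higher in IM than in TAM.

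No gene of the matrix set was called in IM after SBRT alone. In the authors' deposited table, 0 of the 38 members passed the DESeq2 test, against 0.379% of 19273 tested genes higher and 0.14% lower, and 7 members had an unadjusted p below 0.05. Thbs1 came nearest at -0.53 ± 0.15 (adjusted p = 0.0836), with Fn1 at -0.40 ± 0.18 (adjusted p = 0.593). The count was also 0 under each alternative tried. The median log2 fold change of the 38 members was -0.13, against -0.02 for all tested genes.

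In IM the glycoproteins Fn1, Thbs1, Tgfbi and Ecm1, the proteoglycan Vcan, the protease Mmp8 and the inhibitor Timp1 fell both after IL-12 and after the combination. After IL-12, 8 of the 33 members left in the deposited test fell and 0 rose, against 1.33% of tested genes lower and 1.91% higher. After the combination 8 of 38 fell and 1 rose, against 3.03% lower and 3.69% higher. The falls came from the glycoproteins, proteoglycans, metalloproteinases and TIMPs. No collagen, lysyl oxidase, plasminogen activation gene or other protease was called in IM in any table.

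Among the glycoproteins of IM, the implied level of Fn1 was 67960 after SBRT, 41737 after IL-12, 28405 after the combination and 89565 in unirradiated tumours. Its deposited log2 fold change was -1.10 ± 0.18 after IL-12 (adjusted p = 3.32e-07) and -1.66 ± 0.18 after the combination (adjusted p = 2.1e-17), a level 3.15-fold lower. Fibronectin is the glycoprotein that links cells to collagen and fibrin, and its level was lowest where both treatments were given. Thbs1, a matricellular protein that activates latent TGF-beta, had implied levels of 68212 after SBRT, 47938 after IL-12, 47121 after the combination and 98427 in unirradiated tumours. It fell by 1.04 ± 0.15 on the log2 scale after IL-12 (adjusted p = 5.16e-09) and by 1.06 ± 0.15 after the combination (adjusted p = 7.95e-10). Tgfbi fell to 71146 after IL-12 and 73317 after the combination, with 101928 after SBRT and 103845 in unirradiated tumours, log2 fold changes of -0.55 ± 0.15 and -0.50 ± 0.15 (adjusted p = 0.00901 and 0.0131). Ecm1, a secreted glycoprotein that binds other matrix proteins, fell by 0.43 ± 0.13 after IL-12 (adjusted p = 0.0305) and by 0.44 ± 0.13 after the combination (adjusted p = 0.0152). With the spread of the statistics re-estimated from all genes, Tgfbi missed the threshold after the combination, and Ecm1 after IL-12 and the combination.

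Spp1 followed another pattern. Its implied level in IM was 28068 after SBRT, 55350 after IL-12, 25529 after the combination and 35585 in unirradiated tumours, so that IL-12 alone gave the highest of the 4 levels. No deposited table called it in IM: the log2 fold change was 0.64 ± 0.20 after IL-12 (adjusted p = 0.0543) and -0.48 ± 0.20 after the combination (adjusted p = 0.145). When only genes of level 50 or more entered the adjustment, the IL-12 value passed. On GENCODE M21, 18.8% of the exon bases of Spp1 also lie in a second annotated gene on its strand, Gm42793, for which no value was used here.

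In the same tables versican and the TIMPs Timp1 and Timp2 were called lower in IM, Timp2 after the combination. Vcan (chr13:89655312-89742509, minus strand) had implied levels of 8754 after SBRT, 6763 after IL-12, 4752 after the combination and 11159 in unirradiated tumours. It fell by 0.72 ± 0.18 after IL-12 (adjusted p = 0.0048) and by 1.23 ± 0.18 after the combination (adjusted p = 2.43e-09). Timp1 (chrX:20870166-20874735, plus strand), a broad inhibitor of metalloproteinases, had 919.5 after SBRT, 391.2 after IL-12, 324.7 after the combination and 1075 in unirradiated tumours. Its log2 fold changes of -1.46 ± 0.19 after IL-12 (adjusted p = 9.97e-12) and -1.73 ± 0.19 after the combination (adjusted p = 3.59e-17) were the largest of any member in IM in those tables. Timp2, which blocks metalloproteinases and also helps to activate MMP2, had implied levels of 1318 after SBRT, 1164 after IL-12, 1014 after the combination and 1718 in unirradiated tumours, and fell after the combination (-0.76 ± 0.18, adjusted p = 0.00108) but missed the threshold after IL-12 (-0.56 ± 0.18, adjusted p = 0.0567). Both inhibitors thus fell after the combination, while Mmp8 was the only metalloproteinase to fall in that table.

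Among the 8 metalloproteinases, Mmp8 fell to an implied 990.3 after IL-12 and 926.0 after the combination, with 1708 after SBRT and 1908 in unirradiated tumours. Its log2 fold changes were -0.95 ± 0.22 (adjusted p = 0.00109) and -1.04 ± 0.22 (adjusted p = 8.49e-05). MMP8 is best known as the collagenase of neutrophils, and 0 of 12 neutrophil markers were called by DESeq2 in IM in any table, with 1 at an unadjusted p below 0.05 after the combination. Their summed implied level was 22007 after SBRT, 23579 after IL-12, 22383 after the combination and 23443 in unirradiated tumours. The highest of the 12 had a level of 9675 in IM and weighs most in that sum, with Retnlg at 2709 and Ngp at 2414. The highest in TAM was at 7772. The part of neutrophil RNA in the fall of Mmp8 was not tested. Mmp19, a secreted metalloproteinase of the vessel wall and of myeloid cells, fell after IL-12 (-0.49 ± 0.14, adjusted p = 0.0216) and was at -0.36 ± 0.14 after the combination (adjusted p = 0.119). Mmp13 was the only member to rise in IM, to an implied 298.9 after the combination against 183.5 in unirradiated tumours (0.70 ± 0.22, adjusted p = 0.0262), with 220.7 after SBRT and 284.7 after IL-12. The calls of Mmp13 and of Mmp19 were lost with the re-estimated spread. On the strand-blind counts of this kit, 22.3% of the exon bases of Mmp19 lie under the antisense gene Tmem198b, whose own level in IM was 186.8 against 1811 for Mmp19.

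The other 12 members at a level of 100 or more in IM had no call in any table: Col1a1, Col1a2, Col3a1, Col4a2, Sparc, Spp1, Mmp9, Mmp12, Mmp14, Plau, Plaur and Adam8. Their log2 fold changes ran from -0.58 to 0.64. Plaur and Adam8 (levels 17585 and 13216) lay between -0.20 and -0.01 in the 3 tables, with standard errors of 0.13 to 0.14. The 16 members below 100 in IM had values from -0.56 to 0.46, and the lowest adjusted p among them was 0.141. Of 12 fibroblast markers, 1 was called in IM: Pi16, which fell by 1.13 after IL-12 (adjusted p = 1.38e-07) and by 0.79 after the combination (adjusted p = 7.34e-04). The markers' summed implied level was 1968 after SBRT, 1337 after IL-12, 1460 after the combination and 2203 in unirradiated tumours, and Pi16 alone had a level of 1167. The part of Pi16 in the results was not tested. Of 10 monocyte markers in IM, 3 rose and 2 fell after IL-12, and 3 rose and 4 fell after the combination. Of 12 macrophage markers 1 fell after SBRT, 1 rose and 1 fell after IL-12, and 3 rose and 2 fell after the combination. Whether these markers bear on the falls of the matrix genes was not tested.

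**Figure D2:**
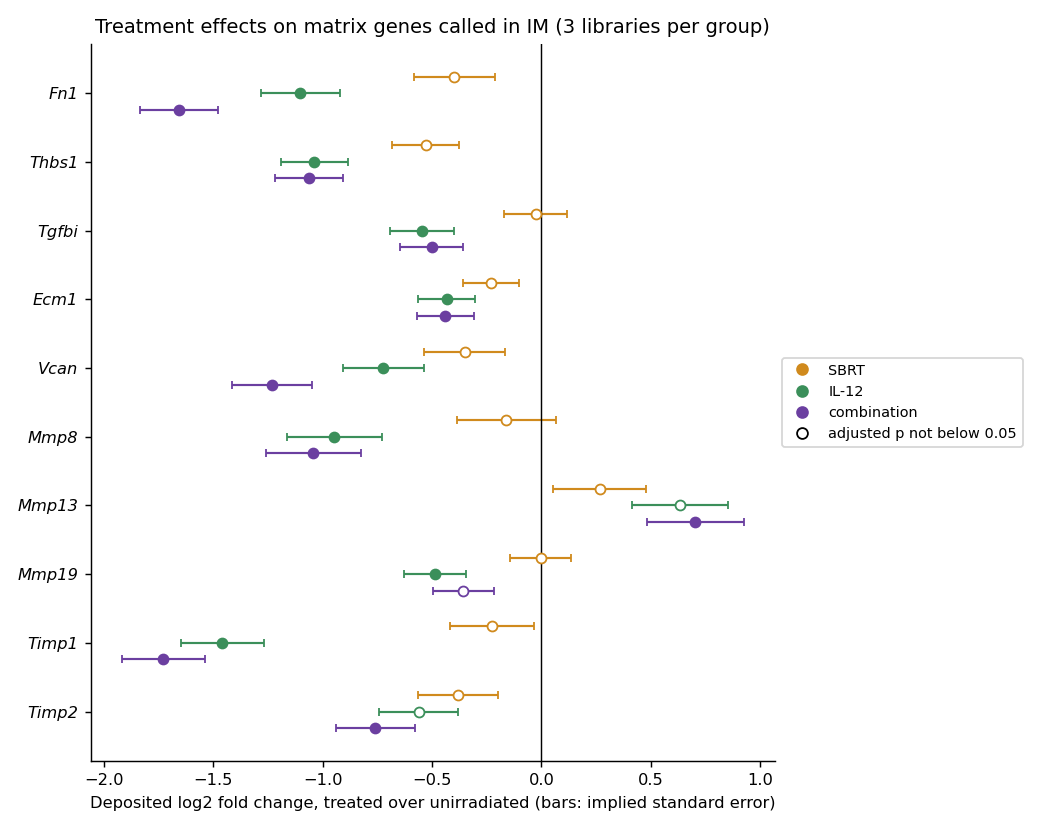
Deposited log2 fold changes (treated over unirradiated, x axis) in IM of the 10 genes called in at least 1 IM table, with bars of 1 implied standard error, in the order SBRT, IL-12 and combination for each gene. Filled points passed at an adjusted p below 0.05: Timp1 and Fn1 lie furthest to the left after IL-12 and the combination, no SBRT point is filled, and Mmp13 alone lies to the right.

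The sequence upstream of the called genes of IM was searched for 3 short motifs, on both strands, in the 250 bases before each gene's start as RefSeq places it on GRCm38.p6. The motifs were the AP-1 site TGANTCA, bound by Fos and Jun factors, the STAT site TTCNNNGAA and the interferon response element (GAAA, any 2 bases and GAAA again), and no matches overlap in the windows shown. Of the 38 genes 27 had a window, 7 of them among the 10 called in IM. AP-1 letters stood in 5 of the 27 windows (Col6a1, Ecm1, Mmp12, Mmp13 and Plaur), against 6.75% of all 32851 windows. Interferon response letters stood in 3 (Mmp13, Spp1 and Tgfbi), against 2.98% of all, and STAT letters in 0, against 7.02% of all. The 3 windows below are shown because they belong to genes called in IM and hold a searched motif, in capitals. A match describes the letters only.
Ecm1 chr3:95739570-95739819 (- strand): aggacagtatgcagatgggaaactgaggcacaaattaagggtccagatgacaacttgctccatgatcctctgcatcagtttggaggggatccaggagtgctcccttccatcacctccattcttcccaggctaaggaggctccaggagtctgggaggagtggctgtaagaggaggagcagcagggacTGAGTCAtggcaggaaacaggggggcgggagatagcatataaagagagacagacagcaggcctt
Tgfbi chr13:56609336-56609585 (+ strand): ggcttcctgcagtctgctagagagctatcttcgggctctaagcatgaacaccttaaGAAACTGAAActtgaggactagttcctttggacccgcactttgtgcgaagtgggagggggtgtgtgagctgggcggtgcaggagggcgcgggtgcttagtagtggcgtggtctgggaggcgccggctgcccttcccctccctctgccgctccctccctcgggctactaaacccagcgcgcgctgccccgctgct
Mmp13 chr9:7272264-7272513 (+ strand): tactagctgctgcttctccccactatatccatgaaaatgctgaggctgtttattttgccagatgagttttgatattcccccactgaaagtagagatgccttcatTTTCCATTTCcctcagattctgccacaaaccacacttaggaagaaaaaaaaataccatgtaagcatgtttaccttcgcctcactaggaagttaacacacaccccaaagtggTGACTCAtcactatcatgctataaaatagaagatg
The match of Ecm1 starts 64 bases before the gene's start and that of Tgfbi 194 bases before it. Mmp13 held an AP-1 match from 35 and an interferon response match, on the other strand, from 146 bases before its start. Ecm1 and Tgfbi fell and Mmp13 rose, so genes with a match were called in both directions.

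Other genes of the matrix machinery of IM changed in the same tables, which called 1.33% of tested genes lower and 1.91% higher after IL-12, and 3.03% lower and 3.69% higher after the combination. Of 21 matrix receptors 5 fell after IL-12, and 5 fell and 1 rose after the combination. Itga6, a laminin-binding integrin chain, fell by 1.22 after IL-12 (adjusted p = 1.2e-06) and by 1.39 after the combination (adjusted p = 4.81e-09). Itgb5, an integrin chain that binds vitronectin, fell by 1.09 after the combination (adjusted p = 9.62e-10), and Cd44, the hyaluronan receptor, by 0.73 (adjusted p = 1.24e-06). The collagen receptor Ddr1 (-1.07, adjusted p = 2.46e-05) and the mannose and collagen receptor Mrc1 (-0.998, adjusted p = 2.73e-04) fell after IL-12. After SBRT alone 0 of the 21 were called by DESeq2, with 4 at an unadjusted p below 0.05.

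In the plasmin system of IM, 1 of 13 genes rose and 1 fell after IL-12, and 2 rose and 2 fell after the combination. F13a1, the factor XIII subunit that cross-links fibrin, fell by 0.84 after IL-12 (adjusted p = 3.18e-06) and by 1.03 after the combination (adjusted p = 1.13e-09). Plgrkt, a plasminogen receptor, rose by 0.49 after IL-12 (adjusted p = 0.0244) and by 0.76 after the combination (adjusted p = 1.13e-05). Of 14 other metalloproteinases Mmp25, a membrane-anchored enzyme of leukocytes, rose after the combination (1.11, adjusted p = 5.3e-06). Of 16 genes of TGF-beta and growth factor input, 1 rose after IL-12, and 2 rose and 2 fell after the combination. They included Tgfb3 (0.87 after IL-12, adjusted p = 0.00307, and 0.81 after the combination, adjusted p = 0.00388), Inhba, an activin subunit (0.74 after the combination, adjusted p = 0.00307) and Smad3, a carrier of TGF-beta signals (-0.50 after the combination, adjusted p = 0.00735).

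Of 26 other glycoproteins and proteoglycans in IM, 1 rose and 1 fell after IL-12 and likewise after the combination. Fgl2, a fibrinogen-like protein of macrophages, rose by 0.69 after IL-12 (adjusted p = 4.65e-04) and by 0.99 after the combination (adjusted p = 9.56e-09). Emilin2, an elastic fibre glycoprotein, fell by 0.60 after IL-12 (adjusted p = 0.00616) and by 0.73 after the combination (adjusted p = 1.43e-04). Ctsc, the protease that activates granule serine proteases, was the only 1 of 12 cathepsins and cystatins called, and it rose after IL-12 (0.42, adjusted p = 0.0441) and after the combination (0.52, adjusted p = 0.00196). Adam10, a membrane sheddase, fell after the combination (-0.50, adjusted p = 0.0269) among 13 ADAM and ADAMTS genes, of which 2 fell. Of 36 other collagens 1 fell after IL-12 and 2 after the combination, each at a level below 50, and 1 of 15 laminin and basement membrane genes fell after SBRT. None of 13 genes of collagen synthesis and cross-linking was called by DESeq2 in IM, with 1, 2 and 1 at an unadjusted p below 0.05 after SBRT, IL-12 and the combination.

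In TAM fibronectin and Timp2 fell after all 3 treatments, and Col1a1, Sparc and Tnc fell after SBRT and the combination. After SBRT 6 of 38 members fell and 1 rose in the authors' deposited table, against 1.15% of tested genes lower and 0.933% higher. After IL-12 4 fell and 0 rose, against 0.284% lower and 0.651% higher. After the combination 10 fell and 1 rose, against 1.97% lower and 2.24% higher. The median log2 fold change of the 38 was -0.25 after SBRT, -0.21 after IL-12 and -0.26 after the combination, against 0.00, -0.01 and 0.00 for all tested genes. Genes of the mitochondrial genome (13 in all), often read for RNA quality, had medians of -0.28, -0.32 and -0.10 in TAM and of -0.29, -0.27 and -0.32 in IM, and their part in the results was not tested. The count after the combination was 5 in place of 11 with the spread of the statistics re-estimated, Col6a1, Sparc, Tnc, Dcn, Mmp2 and Lox being lost.

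Fn1 in TAM had implied levels of 19377 after SBRT, 17187 after IL-12, 13660 after the combination and 35653 in unirradiated tumours. Its log2 fold changes were -0.88 ± 0.21 after SBRT (adjusted p = 0.00468), -1.05 ± 0.20 after IL-12 (adjusted p = 1.10e-04) and -1.38 ± 0.21 after the combination (adjusted p = 4.77e-08). Timp2 (chr11:118301069-118355740, minus strand) had 6157 after SBRT, 6799 after IL-12, 5618 after the combination and 10519 in unirradiated tumours. It fell by 0.77 ± 0.18, 0.63 ± 0.17 and 0.90 ± 0.18 on the log2 scale (adjusted p = 0.00316, 0.0266 and 1.33e-04). In each case every treated level lay below the unirradiated level. Of 10 monocyte markers, 2 rose and 1 fell in TAM after SBRT, 4 rose after IL-12 and 4 rose after the combination, and their summed implied level was 37679 after SBRT, 46512 after IL-12, 43912 after the combination and 30501 in unirradiated tumours. The level of Timp2 was lower in IM than in TAM (1303 against 7221), and that of Fn1 was higher (56917 against 20993). The part of monocyte RNA in the falls of Fn1 and Timp2 was not tested. Fn1 and Timp2 were each called lower in 6 of the 9 tables, more than any other member. The tables of a population share their unirradiated libraries, so calls repeated within a population are not independent of each other. The part of those shared libraries in the repeated falls was not tested.

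Htra3, a secreted serine protease that acts on TGF-beta proteins and proteoglycans, had implied levels of 219.4 after SBRT, 175.1 after IL-12, 168.9 after the combination and 389.6 in unirradiated TAM. It fell after IL-12 (-1.15 ± 0.28, adjusted p = 0.00693) and after the combination (-1.21 ± 0.28, adjusted p = 0.00136), and was at -0.83 ± 0.30 after SBRT (adjusted p = 0.146).

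Of the 8 collagens 1 was called in TAM after SBRT, 0 after IL-12 (1 at an unadjusted p below 0.05) and 3 after the combination, all lower by the authors' DESeq2 test. Col1a1 (chr11:94936224-94953042, plus strand) had implied levels of 386.2 after SBRT, 757.7 after IL-12, 502.0 after the combination and 1070 in unirradiated tumours. Its log2 fold change was -1.47 ± 0.24 after SBRT (adjusted p = 8.55e-07) and -1.09 ± 0.25 after the combination (adjusted p = 9.83e-04), but -0.50 ± 0.22 after IL-12 (adjusted p = 0.538). Sparc, a collagen-binding matricellular protein, followed the same order, with 582.3, 869.9 and 610.7 after SBRT, IL-12 and the combination and 1122 in unirradiated tumours, and fell after SBRT (-0.95 ± 0.25, adjusted p = 0.0104) and the combination (-0.88 ± 0.25, adjusted p = 0.0142). Whether the effect of SBRT differed from that of IL-12 was not tested for these genes.

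Bgn, the small proteoglycan biglycan, fell after SBRT (-0.99 ± 0.25, adjusted p = 0.00793), while after the combination it was at -0.11 ± 0.27 (adjusted p = 0.958). Its implied levels were 190.2 after SBRT, 283.7 after IL-12, 351.5 after the combination and 378.5 in unirradiated tumours. Dcn, the related proteoglycan decorin, fell after the combination (-0.90 ± 0.24, adjusted p = 0.00812), to an implied 77.1 against 144.3 in unirradiated tumours. Tnc, the glycoprotein tenascin C, at a level of only 25.2, fell after SBRT (-0.81 ± 0.20, adjusted p = 0.00656) and after the combination (-0.76 ± 0.22, adjusted p = 0.0202). Col6a1 (-0.65 ± 0.20, adjusted p = 0.0353), Col6a2 (-0.63 ± 0.13, adjusted p = 1.73e-04) and Lox, a collagen cross-linking oxidase (-0.64 ± 0.19, adjusted p = 0.0212), fell in the combination table, at levels of 54.6, 48.1 and 45.5. The sister chains Col1a2 (-0.34, -0.20 and -0.28 after SBRT, IL-12 and the combination) and Col3a1 (-0.51, -0.23 and -0.45) were not called in TAM.

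Of 12 fibroblast markers 1 was called in TAM. Acta2, smooth muscle actin, fell by 0.99 after SBRT (adjusted p = 0.00138) and by 1.09 after the combination (adjusted p = 1.52e-04). The markers' summed implied level was 937.6 after SBRT, 1092 after IL-12, 895.2 after the combination and 1163 in unirradiated tumours. Of 10 epithelial markers 0 were called by DESeq2, with 4 at an unadjusted p below 0.05 after SBRT. Their summed implied level was 1723 after SBRT, 2225 after IL-12, 2775 after the combination and 2621 in unirradiated tumours. Krt18 and Krt8 led that list at levels of 924.8 and 852.1. The median level of the 10 was 61.1, and Epcam, Cldn4 and Cldn7 were below 10. The part of RNA from other cells in the falls of Col1a1, Sparc and the other low genes was not tested.

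Mmp2, the gelatinase that cuts type IV collagen, was called in all 3 TAM tables, in both directions. The implied level of Mmp2 (chr8:92827291-92853420, plus strand) was 817.6 after SBRT, 256.8 after IL-12, 801.3 after the combination and 469.4 in unirradiated tumours. It rose after SBRT (0.80 ± 0.22, adjusted p = 0.0199) and after the combination (0.77 ± 0.22, adjusted p = 0.0167), and fell after IL-12 (-0.87 ± 0.22, adjusted p = 0.011). No other member was called in both directions in TAM. Mmp2 and Timp2, whose proteins act together in the activation of MMP2, therefore moved in opposite directions after SBRT and the combination and in the same direction after IL-12.

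The 18 members at a level of 100 or more in TAM with no call in any table had log2 fold changes from -0.67 to 0.62. Among them were Tgfbi (0.15, 0.01 and 0.04 after SBRT, IL-12 and the combination), Thbs1 (-0.24, -0.33 and -0.30), Adam8 (0.18, -0.09 and 0.02) and Mmp14 (-0.12, -0.05 and -0.08), the membrane-bound metalloproteinase that activates MMP2. Mmp12 had -0.51, -0.67 and -0.56, with adjusted p of 0.596, 0.426 and 0.336. The 8 uncalled members below 100 were Col5a1, Col4a1, Postn, Lum, Mmp8, Timp3, Adamts1 and Loxl2. For Timp3, 21.3% of the exon bases lie under the antisense gene Syn3, whose level in TAM was 5.20.

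**Figure D3:**
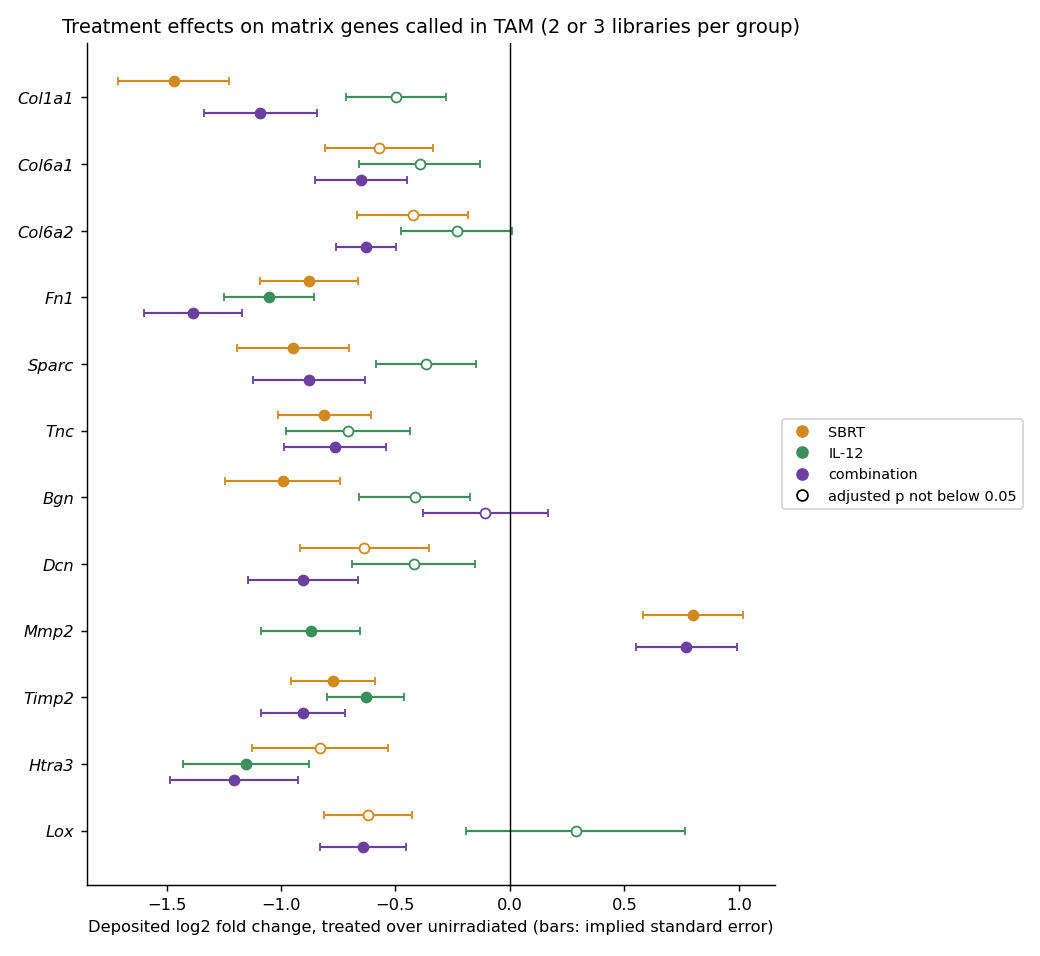
Deposited log2 fold changes (treated over unirradiated, x axis) in TAM of the 12 genes called in at least 1 TAM table, with bars of 1 implied standard error, in the order SBRT, IL-12 and combination for each gene. Filled points passed at an adjusted p below 0.05: Fn1 and Timp2 are filled and to the left for all 3 treatments, Col1a1 and Sparc for SBRT and the combination, and Mmp2 lies to the right for SBRT and the combination and to the left for IL-12.

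Other matrix genes of TAM are to be read against the 1.15% of tested genes called lower and 0.933% higher after SBRT, 0.284% and 0.651% after IL-12, and 1.97% and 2.24% after the combination. Of 13 genes of collagen synthesis and cross-linking, 1 fell after SBRT and 2 after the combination, with Serpinh1, the collagen chaperone, at -1.19 and -1.15 (adjusted p = 0.00189 and 0.00216). Of 21 matrix receptors, 1 fell after SBRT and 3 after the combination: Itga6 (-1.44 after SBRT, adjusted p = 2.61e-08, and -1.72 after the combination, adjusted p = 2.98e-12), Mrc1 (-0.78 after the combination, adjusted p = 0.0029) and Itgb5 (-0.62 after the combination, adjusted p = 0.0456). After IL-12 0 of the 21 were called by DESeq2, with 4 at an unadjusted p below 0.05. Of 16 genes of TGF-beta and growth factor input, 4 fell after SBRT, 0 were called after IL-12 (6 at an unadjusted p below 0.05) and 3 fell after the combination. They included Tgfbr2, a TGF-beta receptor (-0.55 after SBRT, adjusted p = 0.0342), Pdgfa (-1.01 after the combination, adjusted p = 9.32e-04) and Pdgfb (-0.62 after SBRT, adjusted p = 0.0444, and -0.66 after the combination, adjusted p = 0.014).

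In the plasmin system of TAM, F13a1 fell after SBRT (-0.64, adjusted p = 0.00575), IL-12 (-0.62, adjusted p = 0.00557) and the combination (-0.98, adjusted p = 3.67e-07). Plgrkt rose after SBRT (0.56, adjusted p = 0.026) and the combination (0.58, adjusted p = 0.0122). These were the only calls among the 13 genes of that list. Of 26 other glycoproteins and proteoglycans 2 fell after SBRT, 1 rose after IL-12 and 1 fell after the combination. Fbln2, a basement membrane glycoprotein, fell by 1.43 after SBRT (adjusted p = 2.18e-05) and by 1.06 after the combination (adjusted p = 0.00853), Igfbp7 fell by 0.96 after SBRT (adjusted p = 0.0104), and Fbn1, the microfibril protein fibrillin, rose by 1.02 after IL-12 (adjusted p = 0.00801).

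Among 36 other collagens in TAM, Col9a3 rose after SBRT (0.79, adjusted p = 0.0281) and the combination (0.90, adjusted p = 0.0056), and Col14a1 fell after IL-12 (-1.06, adjusted p = 0.00655). Of 15 laminin and basement membrane genes Agrn rose after SBRT (0.68, adjusted p = 0.0283). Ctsd, a lysosomal protease, fell after the combination (-0.55, adjusted p = 0.0491), the only call among 12 cathepsins and cystatins. Of 13 ADAM and ADAMTS genes and 14 other metalloproteinases, 1 each fell after the combination, both at levels below 50.

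**Figure D4:**
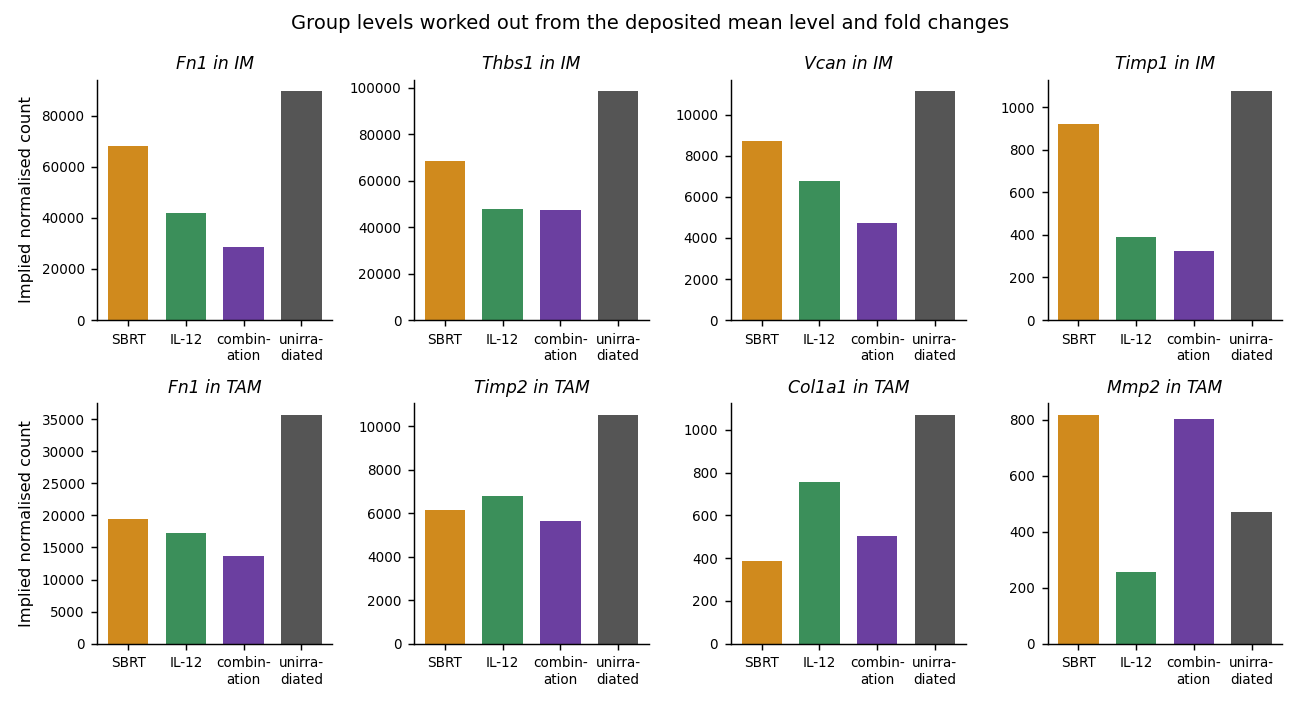
Levels implied for each group (normalised counts, y axis from 0) of 4 genes in IM (upper row) and 4 in TAM (lower row), with bars for SBRT, IL-12, combination and unirradiated tumours. They come from the deposited mean level and shrunken fold changes and carry no error bar of their own; Fn1 is lowest after the combination in both populations, and Mmp2 in TAM is high after SBRT and the combination and low after IL-12.

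CD8 T cells held little matrix RNA, and of the members tested Timp2 alone fell there after both IL-12 and the combination. The summed level of the 38 members was 0.0274% of all normalised counts in CD8 cells, against 0.39% in TAM and 0.65% in IM. Adam8, which T cells also express, had a level of 5738. After SBRT 0 of the 26 tested members were called by DESeq2, against 0.306% of tested genes higher and 0.165% lower, with 7 of the 38 at an unadjusted p below 0.05. After IL-12 1 of 15 was called, and it fell, against 2.52% of tested genes called and 1.04% lower. After the combination 4 of 18 fell and 1 rose, against 2.96% lower and 4.51% higher. Without the filter on mean level, Dcn (-0.50) and Tnc (-0.30) also passed after the combination and Mmp12 missed. Dcn and Tnc had levels of only 26.4 and 5.64 in CD8 cells.

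Timp2 (level 613.1) fell in CD8 cells after IL-12 (-0.94 ± 0.22, adjusted p = 0.00443) and after the combination (-0.87 ± 0.22, adjusted p = 0.00356). Fn1 (507.6) fell after the combination (-0.78 ± 0.23, adjusted p = 0.0119), as did Col1a2 (118.0, -0.76 ± 0.23, adjusted p = 0.0223) and Mmp12 (66.7, -0.75 ± 0.24, adjusted p = 0.0285). Ecm1 (796.0) rose after the combination (0.81 ± 0.21, adjusted p = 0.00492), the opposite direction to its fall in IM. The level of Fn1 in CD8 cells was 0.892% of that in IM, and that of Csf1r, which T cells are not known to express, was 0.998%. Mmp12 and Ecm1 stood at 7.56% and 7.71% of their IM levels, and Timp2 and Col1a2 at 47.0% and 74.1%. Of their TAM levels, Mmp12 and Ecm1 stood at 1.56% and 5.79%, and Timp2 and Col1a2 at 8.49% and 25.6%. Fn1 and Csf1r stood at 2.42% and 0.993% of TAM. The 12 macrophage markers had a summed implied level in CD8 libraries of 14649 after SBRT, 11076 after IL-12, 8730 after the combination and 12645 in unirradiated tumours, and 0 of 12 were called by DESeq2, with 7 at an unadjusted p below 0.05 after the combination. The part of myeloid RNA in the CD8 calls was not tested. None of the CD8 calls was left with the spread of the statistics re-estimated.

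Few other matrix genes were called in CD8 cells, where 2.52% of tested genes were called after IL-12, and 2.96% were lower and 4.51% higher after the combination. Serpine2, a protease inhibitor that blocks thrombin and urokinase, rose after the combination (1.43, adjusted p = 2.24e-12), and Anxa2, a plasminogen-binding annexin, rose after IL-12 (0.42, adjusted p = 0.0452) and the combination (0.46, adjusted p = 0.00933), the only calls among 13 genes of the plasmin system. Hmmr, a hyaluronan-binding protein of dividing cells, rose after IL-12 (0.68, adjusted p = 0.0154) and the combination (0.91, adjusted p = 6.42e-05), while the collagen receptor Mrc2 (-1.02, adjusted p = 5.72e-04) and the integrin chain Itgb8 (-0.78, adjusted p = 0.021) fell after the combination.

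Adding IL-12 to SBRT changed Fn1 and Timp1 in IM beyond the effect of SBRT. The effect of the combination minus that of SBRT was -1.26 ± 0.26 for Fn1 (adjusted p = 0.00133) and -1.50 ± 0.27 for Timp1 (adjusted p = 6.48e-05), by a normal test on the difference of the deposited fold changes with Benjamini-Hochberg adjustment over 32818 genes. These were the 2 members called in IM, against 0.195% of all genes. This test counts the shared unirradiated libraries in both effects and is conservative: with their variance removed Thbs1, Vcan and Mmp8 passed as well. In TAM 0 members differed between the combination and SBRT, against 0.0216% of genes, with 1 at an unadjusted p below 0.05, and in CD8 cells 0, against 0.0815%, with 3.

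Adding SBRT to IL-12 changed Mmp2 in TAM. The effect of the combination minus that of IL-12 was 1.64 ± 0.31 for Mmp2 (adjusted p = 2.30e-04), the 1 member called, against 0.0988% of genes. In IM 0 members and 0% of genes were called, with 3 members at an unadjusted p below 0.05. The lowest of those was Spp1 at -1.12 ± 0.28 (adjusted p = 0.999971), which passed once the variance of the shared libraries was removed. In CD8 cells 0 members were called, against 0.00302% of genes, and 0 had an unadjusted p below 0.05.

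The interaction, by which the combination departs from SBRT and IL-12 effects added together, was called for 0 members in every population. The share of all genes called was 0.00305% in IM, 0.0154% in TAM and 0.00604% in CD8 cells, and 1, 4 and 0 members had an unadjusted p below 0.05. In TAM the largest was that of Bgn at 1.30 ± 0.44 (adjusted p = 0.999975). With 2 libraries in most TAM groups the intervals were wide: that of Bgn ran from 0.43 to 2.17.

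The effect of the combination on Vcan and Timp1 differed between TAM and IM by the normal test on shrunken fold changes. Shrinkage may differ between the fits of the populations, which this test does not allow for. TAM had 2 libraries in each of the groups used. The effect in TAM minus that in IM was 1.23 ± 0.31 for Vcan (adjusted p = 0.0129) and 1.55 ± 0.32 for Timp1 (adjusted p = 7.30e-04), as both fell in IM and were at 0.00 ± 0.25 and -0.18 ± 0.26 in TAM. Col6a2 differed the other way, at -0.59 ± 0.14 (adjusted p = 0.00783), with -0.63 in TAM and -0.04 in IM. Its level in IM was 11.2, where the implied standard error is too small, and it was not among the genes tested when only levels of 50 or more were used. With a standard error shared over the 3 tables of each population its difference was -1.13. These 3 of 38 compare with 0.927% of 30093 genes. After SBRT 0 members differed between TAM and IM, against 0.272% of genes and with 10 at an unadjusted p below 0.05, and after IL-12 0 differed, against 0.0532% and with 12.

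Some members fell in both myeloid populations. After the combination Fn1 and Timp2 fell in both, 20% of the 10 members that fell in TAM and 25% of the 8 that fell in IM. Over all genes, 61 fell in both after the combination, 18.0% of the 339 that fell in TAM and 10.8% of the 566 that fell in IM. After IL-12 Fn1 alone fell in both, 25% of 4 in TAM and 12.5% of 8 in IM, against 9 of all genes, 16.7% of 54 in TAM and 4.02% of 224 in IM. Thbs1 had -0.30 ± 0.21 in TAM and -1.06 ± 0.15 in IM after the combination, a difference of 0.76 ± 0.26 that missed the threshold (adjusted p = 0.188). Htra3 had -1.21 ± 0.28 in TAM and -0.11 ± 0.20 in IM, a difference of -1.09 ± 0.34 that also missed it (adjusted p = 0.11).

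**Figure D5:**
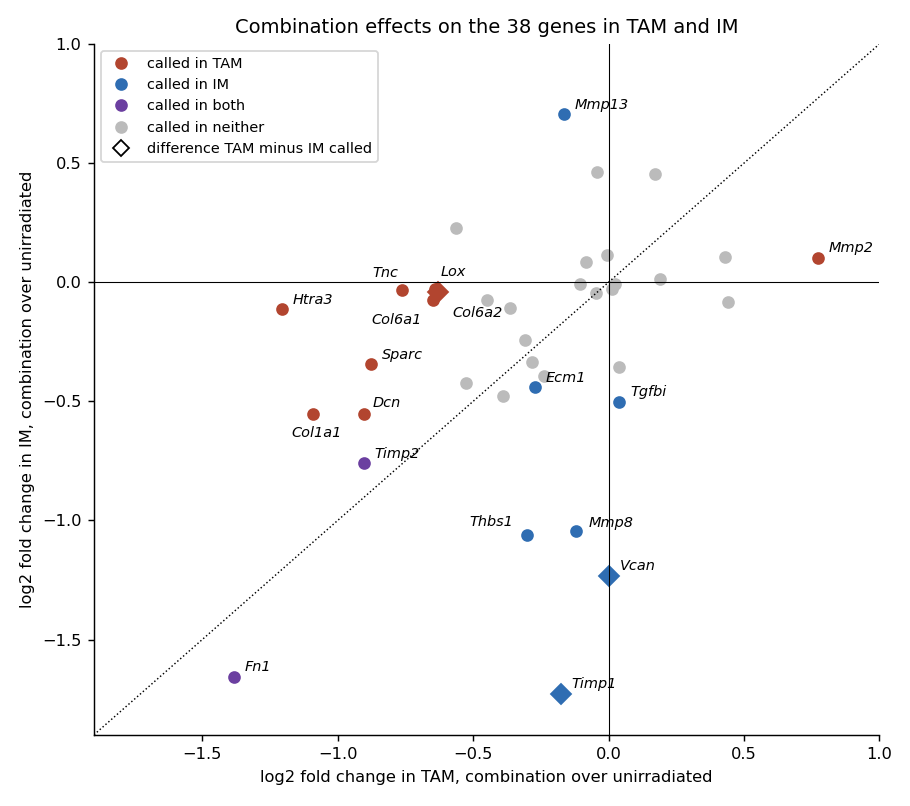
Deposited log2 fold changes after the combination in TAM (x axis) against IM (y axis) for the 38 genes, with a dotted line of equal change, colours for the population in which a gene was called, and diamonds for a called difference between the populations. Fn1 and Timp2 lie low in both, Timp1 and Vcan lie far down in IM at about 0 in TAM, and Col1a1, Col6a1, Col6a2, Htra3 and Sparc lie to the left in TAM.

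Summed over the 38 members, the implied matrix RNA of IM was 331216 after SBRT, 277727 after IL-12, 235473 after the combination and 400778 in unirradiated tumours. In TAM it was 189665, 175621 and 173788 after SBRT, IL-12 and the combination and 214332 in unirradiated tumours. By role, the summed TIMP level after the combination was 0.55 times the unirradiated level in TAM and 0.483 times in IM, while the summed metalloproteinase level was 0.899 times in TAM and 0.941 times in IM. Fibrillar collagens stood at 0.644 times in TAM and 0.835 times in IM. These sums are dominated by their highest genes, rest on shrunken fold changes and have no test. In IM the median log2 fold change in the deposited tables was -0.07 over all 38 members after IL-12, or -0.11 over the 33 with an adjusted p, and -0.10 over all 38 after the combination, against -0.02 for all tested genes in both tables.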

How the data were processed

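RNA from sorted TAM, IM and CD8 cells of KCKO tumours was sequenced in 33 libraries, made with the TruSeq RNA V2 kit, per the labels' protocols. Tools named in the submitters' processing notes are STAR 2.6.0c, Salmon, featureCounts of Subread, Trimmomatic 0.36 and FastQC 0.11.8, and the build named is GRCm38. The values are 9 result tables deposited by the authors. Per the file headers these give a normalised signal (the mean count over libraries after scaling), a log2 fold change and a Wald score (DESeq2), with its p-value and an adjusted p-value; within a population, all 3 tables give the same level. The DESeq2 version and model are not given in the sources used here. The fold changes deposited by the authors are shrunken on the log2 scale.

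The standard error was taken as the fold change divided by the Wald score. Differences between effects were tested with a normal test on summed variances and adjusted over the whole table by Benjamini and Hochberg's method (Python 3.11.15, scipy 1.17.1, pandas 2.3.3), checked on simulated data. The call threshold was 0.05. Alternatives were a spread of the Wald scores re-estimated from all genes, no filter on mean level, levels of at least 50, a shared standard error, and removal of the variance of the shared unirradiated libraries. The 38 members, the other gene lists and the motifs were chosen with earlier results of these data known. Full values are given for members called in at least 1 table of a population, and other members by their range; of each pathway list up to 3 genes per comparison with the smallest adjusted p and a level of at least 50 are named, except that 1 gene is not reported here, and Plaur, Adam8 and other uncalled members were singled out after their values were seen. Positions, exon lengths and overlaps come from GENCODE M21 (GRCm38) by gene name. The marker lists covered fibroblast, endothelial, epithelial, acinar, neutrophil, macrophage, monocyte, CD8 T and B cells, with mitochondrially encoded and dissociation stress genes. The lists below were called as follows, with some of these counts also given in the results. Endothelial markers: 1 of 10 rose in IM and 1 in TAM after the combination, and in CD8 cells 1 fell after IL-12 and 2 after the combination. Epithelial markers: 1 of 10 fell in IM after IL-12 and after the combination. Acinar markers: 1 of 10 rose in IM after IL-12, 1 fell there after the combination, and 1 rose in CD8 cells after SBRT. Macrophage markers: of 12 in IM, 1 fell after SBRT, 1 rose and 1 fell after IL-12, and 3 rose and 2 fell after the combination. Monocyte markers: of 10 in IM, 3 rose and 2 fell after IL-12 and 3 rose and 4 fell after the combination, and in TAM 2 rose and 1 fell after SBRT, 4 rose after IL-12 and 4 after the combination. CD8 T cell markers: 0 of 10 were called by the authors' DESeq2 test in any table (at most 4 at an unadjusted p below 0.05). B cell markers: 1 of 6 fell after SBRT in TAM and in CD8 cells. Of 13 mitochondrially encoded genes 1 fell in IM after the combination, and of 12 dissociation stress genes 1 fell in CD8 cells after the combination. No other gene of the macrophage, monocyte, neutrophil or epithelial lists was called. Among laminin, cathepsin, growth factor, ADAM, other collagen and other metalloproteinase genes none was called by the authors' DESeq2 test in CD8 cells (at most 4 of a list at an unadjusted p below 0.05), and 1 gene each of collagen synthesis and of the other glycoproteins fell there after the combination.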

Additional observations from a re-analysis of the deposited data

Results flagged for a closer look

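The effect of the combination differed between TAM and IM for 3 matrix genes by the normal test of that difference, adjusted over 30093 genes. The test does not allow for shrinkage that may differ between the fits of the populations. The difference, TAM minus IM, was 1.23 for Vcan, 1.55 for Timp1 and -0.59 for Col6a2 on the log2 scale. Vcan had a log2 fold change of 0.00 ± 0.25 in TAM at a level of 151.9, and -1.23 ± 0.18 in IM at a level of 7857. Timp1 had -0.18 ± 0.26 in TAM at 350.8, and -1.73 ± 0.19 in IM at 677.7. Col6a2 had -0.63 ± 0.13 in TAM at 48.1, and -0.04 ± 0.06 in IM at 11.2, below the level at which the implied standard error can be relied on.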

How the results depend on the processing

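No paired analysis was possible because the authors' deposited tables hold no value of a single library; for the same reason no library could be left out. With the spread of the Wald statistics re-estimated from all genes, the members called numbered 5 in TAM after the combination, 0 in CD8 cells after IL-12 and 0 in CD8 cells after the combination, against 11, 1 and 5. With the variance of the shared unirradiated libraries removed, the combination differed from SBRT for 5 members in IM and 1 in CD8 cells (Fn1), against 2 and 0, and from IL-12 for 1 member in IM, against 0. Over all genes, the re-estimated spread called 356 and 485 in IM after IL-12 and the combination, 322 in TAM after the combination, and 1, 24 and 211 in CD8 cells after SBRT, IL-12 and the combination, against 546, 1254, 725, 77, 349 and 1129; without the mean filter CD8 cells after SBRT had 40. Removing the shared variance called 352, 31 and 461 genes in IM, TAM and CD8 cells for the combination against SBRT (64, 7 and 27 as reported), 16, 222 and 61 against IL-12 (0, 32 and 1), and 4, 17 and 19 for the interaction (1, 5 and 2). The other counts of members stayed within 1.5 times of those reported under every alternative run. Of the 45 calls in the deposited tables, 17 missed the threshold with the re-estimated spread and 3 without the filter on mean level. No difference between effects changed direction. The cause was not tested. The unknown depth per library and 2 libraries in most TAM groups limit what could be detected.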
